A study of Homo sapiens with 6 samples.

Results

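BRA binding at the gene that encodes it, T, and at EOMES, the gene of a related T-box factor, was examined in the deposited BRA peak lists. The members were the peaks of all 4 lists whose midpoint fell within the gene body or the 50 kb on either side of it. These windows, in hg19, ran on chromosome 6 from 166521000 to 166632000 for T (111 kb) and on chromosome 3 from 27707000 to 27814000 for EOMES (107 kb). They held 31 of the 54994 peaks, 15 at T and 16 at EOMES.

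The peaks came from H9 cells, an established line of human embryonic stem cells, grown for 36 h in chemically defined medium with 20 ng/ml FGF2 and 10 μM LY294002, an inhibitor of PI3 kinase. FLyA medium also held 100 ng/ml activin A and gave endoderm progenitors, whereas FLyB medium held 10 ng/ml BMP4 instead and gave mesoderm progenitors. BRA was immunoprecipitated in 1 library per medium and antibody, with an antibody from R&D Systems or one from Santa Cruz, and an input DNA library of each medium was not analysed here. The cells of both media were thus of 1 line at 1 time, and the lists do not show what share of them carried BRA. By western blot and flow cytometry, the study found mostly low BRA with high EOMES in FLyA. In FLyB it found mainly the reverse. Whether these protein levels bear on the peak counts was not tested.

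BRA and EOMES are transcription factors of the T-box family, whose DNA-binding domains recognise closely related short sequences. T is switched on in the primitive streak of the gastrulating embryo, where BRA is needed to form mesoderm, and it serves as an early marker of streak cells. EOMES is expressed in the streak as well and is needed for definitive endoderm. A peak marks DNA that was recovered with the antibody more often than its background, and says neither how strongly the site was occupied nor whether the gene responds to it.

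Each list holds positions only, and every peak in it was 400 bp wide. The FLyA lists comprise 25864 peaks (R&D Systems) and 2436 (Santa Cruz), and the FLyB lists 23687 and 3007, so most R&D Systems peaks have no Santa Cruz counterpart anywhere in the genome. Of the Santa Cruz FLyA peaks 31.9% overlapped an R&D Systems peak of the same medium, against 79.0% of the Santa Cruz FLyB peaks. The study reports a high correlation of BRA binding between the antibodies in each medium. It also describes the Santa Cruz libraries as noisier and as yielding fewer unique reads, which touches every comparison of the antibodies below. The number of reads per library is not part of the lists. No medium and antibody was repeated, so the only spread over libraries is that between the antibodies, which the study took as its repeat experiment. Both antibodies' lists of a medium may have been called against the same input library.

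The promoters of both genes are shown because R&D Systems peaks lay within 1 kb of both gene starts as the windows give them. At T this was so in FLyB alone, and at EOMES in both media. In RefSeq (build GRCh38.p14, where T is named TBXT) both genes lie on the minus strand. The 250 bases before the first TBXT start lie at chr6:166168656-166168905 and those before the EOMES start at chr3:27722324-27722573. These positions are in another build than the peaks and were not converted to it, so they are not set beside the peaks here. The sequences run 5′ to 3′ along the gene, and capitals mark the letters TATAA on either strand, the core of a TATA box, a motif added after the sequences had been read.
TBXT: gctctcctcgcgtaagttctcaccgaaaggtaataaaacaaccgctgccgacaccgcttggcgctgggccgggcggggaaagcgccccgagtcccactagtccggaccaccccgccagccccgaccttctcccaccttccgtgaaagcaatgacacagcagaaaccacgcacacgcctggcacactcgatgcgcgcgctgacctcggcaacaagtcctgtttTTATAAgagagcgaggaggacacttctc
EOMES: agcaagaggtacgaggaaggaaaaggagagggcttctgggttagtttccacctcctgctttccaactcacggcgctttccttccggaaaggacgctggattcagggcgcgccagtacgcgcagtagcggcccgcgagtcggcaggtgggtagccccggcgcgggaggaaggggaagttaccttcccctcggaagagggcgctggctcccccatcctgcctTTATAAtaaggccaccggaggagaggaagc

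The T-box motif AGGTGTGA was searched on both strands of the 300 bases that run from 250 before to 50 after each start. It matched neither of the 2 TBXT promoters in the table nor the EOMES promoter, and 0.980% of all 35116 promoters hold it. Its shorter forms GGTGTGA and GTGTGA, which lie within it and occur in 3.45% and 12.0% of promoters, did not match either. Likewise absent from these windows were the FOX motif TGTTTAC and the GATA motif AGATAA, which 3.42% and 10.3% of all promoters hold. So were the SMAD sequences GTCTAGAC and GGCGCC (0.202% and 19.2% of promoters), the TCF/LEF motif CTTTGAT (2.62%) and the POU motif ATGCAAAT (1.77%). Most promoters lack each of these motifs, so their absence does not set these genes apart. TATAA matched from 27 bases before the first TBXT start and from 29 bases before the EOMES start, and 20.4% of promoters hold it. On the other strand the match overlapped by all but a base, so that TTATAA is marked. The second TBXT start, 804 bases after the first, had no match to any of these motifs. The peaks themselves were not searched, as no genome of the build of the lists was used here. Whether any of these promoters lies under a peak was not determined.

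At T, BRA peaks were more numerous in FLyB than in FLyA with both antibodies. The R&D Systems lists held 10 peaks in FLyB and 3 in FLyA, and the Santa Cruz lists held 2 in FLyB and 0 in FLyA. At EOMES the R&D Systems lists went the other way, with 8 peaks in FLyA and 5 in FLyB, while the Santa Cruz lists held 1 in FLyA and 2 in FLyB. The lengths of the lists bear on these counts. Over the whole genome the FLyA list is the longer with the R&D Systems antibody and the FLyB list is the longer with the Santa Cruz antibody. The R&D Systems difference at T thus ran against the lengths, while that at EOMES and both Santa Cruz differences ran with them.

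With the antibodies taken as 2 pairs, FLyB exceeded FLyA at T by 4.50 ± 3.54 peaks (SD, n = 2 pairs), in both pairs. At EOMES the mean difference was -1 ± 2.83 peaks, with the pairs in opposite directions. The exact two-sided permutation test within pairs gave p = 0.5 at T, the smallest value that 2 pairs allow, and p = 1 at EOMES. Per 10000 peaks of a list, T held 1.16 in FLyA and 4.22 in FLyB with the R&D Systems antibody, and 0.00 and 6.65 with the Santa Cruz antibody. EOMES held 3.09 and 2.11 with the R&D Systems antibody, and 4.11 and 6.65 with the Santa Cruz antibody. On this scale the mean difference, FLyB minus FLyA, was 4.86 ± 2.54 at T, and at EOMES it changed sign to 0.78 ± 2.49.

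**Figure D1:**
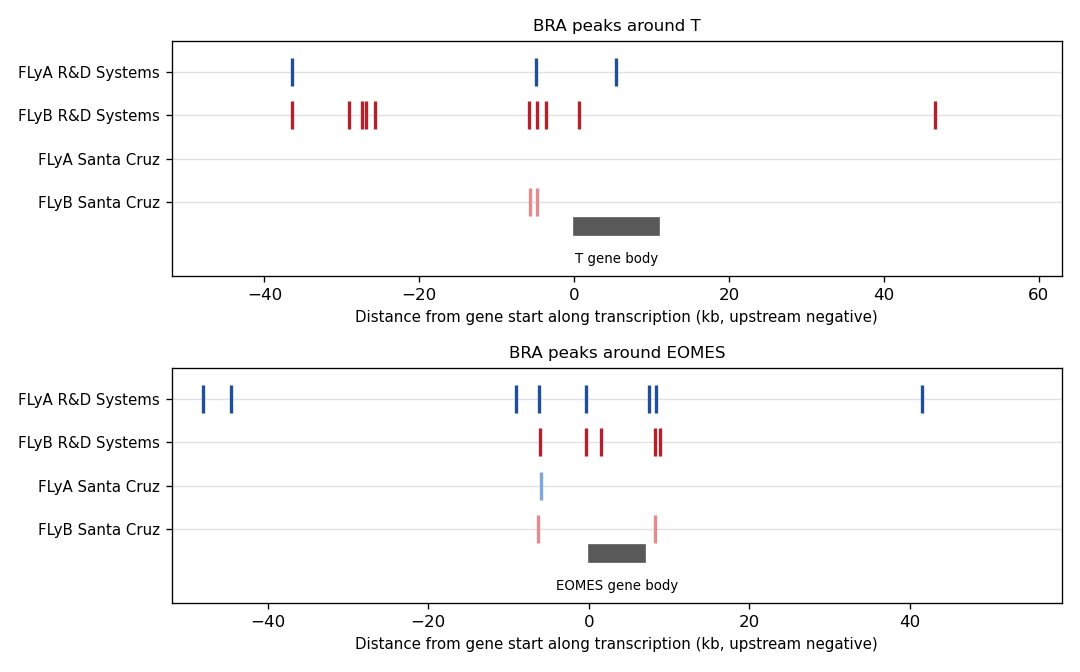
Midpoints of BRA peaks (vertical ticks) in the 4 lists at T (top) and EOMES (bottom), against the distance from the gene start in kb along transcription, with the gene body as a grey bar. At T the FLyB R&D Systems list has 8 of its 10 peaks upstream of the start, and at EOMES all 4 lists have a peak about 6 kb upstream.

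Gene starts and ends are known here to 1 kb, from the windows, and exons and introns were not assigned. Of the 10 FLyB R&D Systems peaks at T, 8 lay upstream of the gene, 1 in its body and 1 downstream of its end. They formed a group around the gene start and a second group farther upstream. Of these 10 peaks 80.0% lay within 5 kb of another, against 30.2% of the whole list. Close spacing was not particular to T, since at EOMES it held for 80.0% of FLyB R&D Systems peaks. In the FLyA R&D Systems list it held for 75.0% at EOMES and 0% at T, against 22.9% of all. Groups of at least 4 were 0.932% of all groups and single peaks of the FLyB R&D Systems list.

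The group at the start held 4 peaks within 6.75 kb. The first of them, at 166581233 to 166581632, lay in the gene body as the window gives it, 0.6 kb after the gene start. That is less than the 1 kb to which the start is known, and RefSeq has another start 804 bases after the first. Which of the starts this peak lies nearest to was not determined. The other 3 had midpoints 3.7, 4.9 and 5.8 kb upstream. The middle one was the T site found in the most lists. At this site, between 166586609 and 166587121, peaks were called in FLyA and FLyB with the R&D Systems antibody and in FLyB with the Santa Cruz antibody, and the 3 midpoints spanned 113 bp. The site 5.8 kb upstream, from 166587560 to 166587987, was called in FLyB with both antibodies, with midpoints 28 bp apart, and in neither FLyA list. The nearest FLyA R&D Systems midpoint was 866 bp away, at the neighbouring site that both media share. The site 3.7 kb upstream was held in the FLyB R&D Systems list alone.

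The second group held 4 peaks within 3.71 kb, with midpoints 25.8, 26.9, 27.4 and 29.1 kb upstream of T. It was called with the R&D Systems antibody in FLyB alone. The nearest FLyA R&D Systems midpoint lay between 7.35 and 10.66 kb from these peaks.

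Farther upstream, a site at 166618236 to 166618698 was found in both R&D Systems lists, 36.5 kb from the gene start and with midpoints 63 bp apart. The only FLyB peak downstream of T lay 35.6 kb beyond the end of the gene. In FLyA, the remaining peak lay in the gene body, at 166576414 to 166576813, 5.4 kb after the start. Its nearest FLyB midpoint was 4.82 kb away, so the peaks that the media have in the gene body were at different places.

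FLyB peaks went on beyond the T window on its upstream side. Between 50 and 100 kb upstream of T, outside the rule, the R&D Systems lists held 9 peaks in FLyB and 1 in FLyA, and the Santa Cruz lists 2 and 0. The FLyB peaks lay from 54.8 to 100.0 kb upstream. The FLyA peak, at 166681757 to 166682156, overlapped a FLyB peak of each antibody. These ran from 166681758 to 166682157 (R&D Systems) and from 166681745 to 166682144 (Santa Cruz). On the downstream side no list had a peak at this distance. Which genes these peaks lie nearest to was not determined.

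At EOMES the R&D Systems peaks lay close to the gene in FLyB and were spread more widely in FLyA. The Santa Cruz peaks lay close to the gene in both media, 6.0 kb upstream in FLyA. In FLyB they lay 6.3 kb upstream and 1.3 kb beyond the end. All 5 FLyB R&D Systems peaks had midpoints between 1.8 kb beyond the end of the gene and 6.1 kb upstream of its start. The 8 FLyA R&D Systems peaks reached from 34.6 kb beyond the end to 48.1 kb upstream, and 3 of them lay more than 20 kb from the gene. With a flank of 20 kb in place of 50 kb, the R&D Systems counts at EOMES were 5 in each medium.

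A site about 6 kb upstream of EOMES was the only one at either gene found in all 4 lists. It ran from 27769751 to 27770478, and its 4 midpoints lay 6.0 kb (FLyA Santa Cruz), 6.1 kb (FLyB R&D Systems), 6.2 kb (FLyA R&D Systems) and 6.3 kb (FLyB Santa Cruz) upstream. Sites in all 4 lists are 226 of the 43081 sites of the series, 0.525%. The peaks here did not coincide closely. Midpoints of the Santa Cruz peaks were 328 bp apart, and that of the FLyA Santa Cruz peak was 222 bp from its R&D Systems counterpart. With at least 200 bp of overlap required, the FLyA Santa Cruz peak was shared with neither the FLyB Santa Cruz nor the FLyA R&D Systems peak. EOMES still had 10 sites under that rule, so the site itself was not split.

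At the EOMES gene start, both R&D Systems lists held a peak, at 27764078 to 27764477 in FLyA and 27764076 to 27764475 in FLyB. These midpoints were 2 bp apart and 0.3 kb before the gene start, a distance below the 1 kb to which that start is known. Neither Santa Cruz list had a peak there. FLyB also had a peak in the gene body, 1.5 kb after the start, whose nearest FLyA midpoint was 1.77 kb away.

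Another EOMES site shared by the media lay 1.3 kb beyond the end of the gene, at 27755461 to 27755927. It was called in both R&D Systems lists and in the FLyB Santa Cruz list, with midpoints within 67 bp. On either side of it stood a peak of 1 medium. A FLyB R&D Systems peak at 27754974 to 27755373 had its nearest FLyA midpoint, that of the shared site, 487 bp away. A FLyA R&D Systems peak at 27756305 to 27756704 had its nearest FLyB midpoint, again at the shared site, 777 bp away.

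The other 4 EOMES peaks were in the FLyA R&D Systems list alone. One lay 9.0 kb upstream, with the nearest FLyB midpoint 2.95 kb away. A pair stood 44.7 and 48.1 kb upstream, 38.56 and 42.03 kb from any FLyB midpoint. The last lay 34.6 kb beyond the end of the gene, 32.77 kb from a FLyB midpoint.

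Overlapping peaks were joined into sites to compare the lists. T had 11 sites and EOMES 10. At T, 8 sites were held in FLyB alone, 1 of them with both antibodies, 1 in FLyA alone and 2 in both media. At EOMES, 5 were held in FLyA alone, 2 in FLyB alone and 3 in both media. All the sites of FLyA alone at either gene were seen with the R&D Systems antibody only. So were 17017 of the 18825 sites of FLyA alone in the genome, so this does not set the genes apart. Of the rest, 1571 were seen with the Santa Cruz antibody only and 237 with both. Over the whole genome, with either antibody, 43.7% of sites were held in FLyA alone, 36.2% in FLyB alone and 20.1% in both media.

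Counted by peaks, 2 of the 10 FLyB R&D Systems peaks at T overlapped a FLyA peak (20.0%, exact 95% interval 2.52 to 55.6%), and 36.1% of all FLyB R&D Systems peaks did so. At EOMES it was 3 of 5 (60.0%, 14.7 to 94.7%). From the FLyA side, 2 of 3 peaks at T and 3 of 8 at EOMES overlapped a FLyB peak, against 33.0% of the whole FLyA R&D Systems list. The intervals treat peaks as independent, cover counting error only, and hold the share of the whole list in each of these 4 cases. At each gene the counts from the FLyB and the FLyA side are of the same overlaps, so they are not separate checks. With so few peaks the intervals are too wide to tell whether sharing at these genes differs from that of the whole list.

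**Figure D2:**
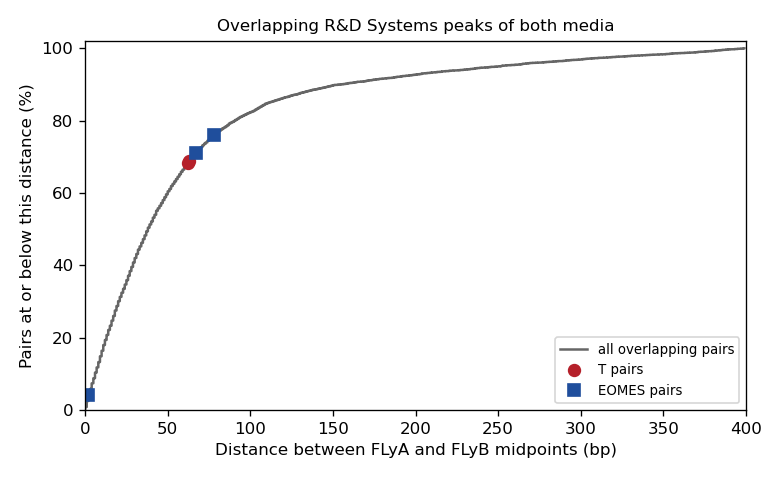
Cumulative share (vertical axis, %) of all 8572 overlapping FLyA and FLyB R&D Systems pairs by the distance between their midpoints (horizontal axis, bp), with the 2 pairs at T (circles, 62 and 63 bp, nearly on top of each other) and the 3 at EOMES (squares). The EOMES pair 2 bp apart sits at the low end, and the other 4 pairs sit between 62 and 78 bp.

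Where both media had a peak with the R&D Systems antibody, the midpoints were 62 and 63 bp apart at T and 2, 67 and 78 bp apart at EOMES. The median over all 8572 overlapping pairs was 38 bp. The peak at the EOMES start was thus among the most closely placed, since 4.12% of pairs were at most 2 bp apart. The other 4 pairs lay above the median.

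The Santa Cruz peaks at these genes fell on R&D Systems peaks of the same medium without exception, with 2 of 2 at T and 3 of 3 at EOMES. In FLyB the background is the 79.0% of that list given above, so the 4 peaks there are not set apart. Seen from the R&D Systems lists, 2 of 10 FLyB peaks at T and 2 of 5 at EOMES had a Santa Cruz counterpart in that medium, against 10.0% of all. In FLyA it was 0 of 3 and 1 of 8, against 3.02%. Between the media, the Santa Cruz lists shared 1 site, the one about 6 kb upstream of EOMES. Over the whole lists 10.1% of FLyA and 8.28% of FLyB Santa Cruz peaks overlapped a Santa Cruz peak of the other medium. The nearest FLyA Santa Cruz midpoint to either Santa Cruz peak at T was over 200 kb away, at 202.76 kb from one and 203.71 kb from the other.

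**Figure D3:**
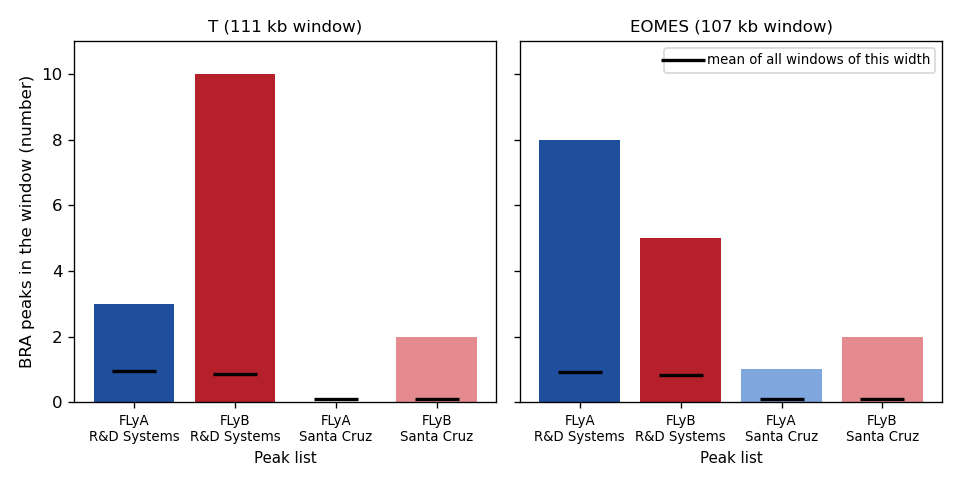
Number of BRA peaks (vertical axis) in each of the 4 lists (horizontal axis) in the T window (left) and the EOMES window (right), with the mean over all windows of the same width as a black line. Every bar but the FLyA Santa Cruz one at T, which is 0, stands above its line, from 3.17 times the mean (FLyA R&D Systems, T) to 18.9 times (FLyB Santa Cruz, EOMES).

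The counts were set beside those of windows of the same width laid end to end along the autosomes and chromosome X. A window of the T width held 0.867 FLyB R&D Systems peaks on average, and the 10 at T were 11.5 times that number. At least 10 were found in 0.205% of the 27308 windows. For the 3 FLyA R&D Systems peaks at T the share was 10.9%, and for the 2 FLyB Santa Cruz peaks 1.38%. T therefore ranked among the most densely bound windows in FLyB, but not in FLyA.

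For EOMES the order of the media was the opposite with the R&D Systems antibody. At least 8 FLyA peaks were found in 0.247% of the 28330 windows of its width, and at least 5 FLyB peaks in 2.91%. The Santa Cruz counts of 1 in FLyA and 2 in FLyB were reached in 7.82% and 1.24% of windows. Windows without any peak, some of them in sequence to which reads cannot be aligned, lower all of these shares. Windows are not matched for genes, and these shares describe the lists and are not tests.

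**Figure D4:**
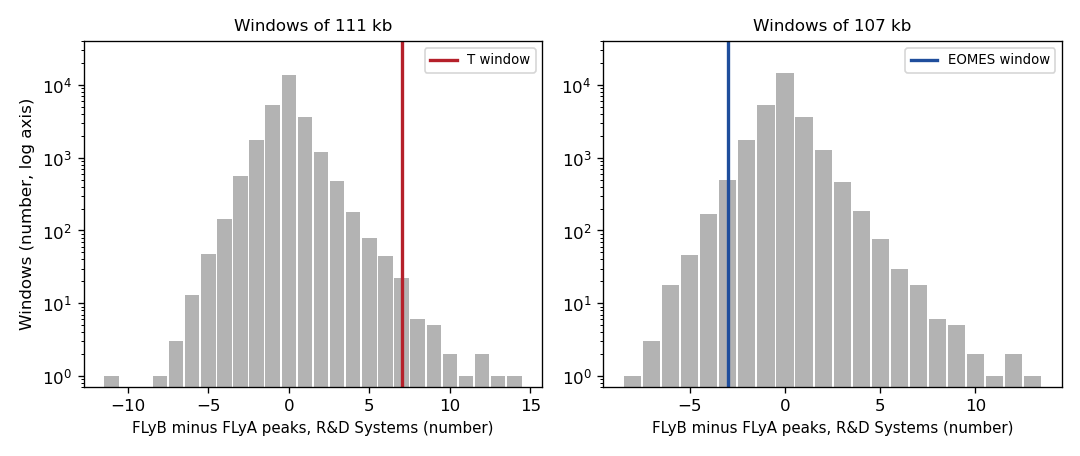
Number of windows (vertical log axis) by the difference between FLyB and FLyA R&D Systems peak counts (horizontal axis) for windows as wide as that of T (left) and of EOMES (right), with the locus as a coloured line. T stands in the right-hand tail at 7 and EOMES left of the centre at -3.

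The difference between the media was read in the same way. At T the R&D Systems count in FLyB exceeded that in FLyA by 7, and a difference at least as large in that direction was found in 0.146% of windows. At EOMES the difference was -3 (FLyB minus FLyA), reached or passed in 2.58% of windows. Windows with many peaks have more room to differ. Among the 168 windows with at least as many R&D Systems peaks of both media together as T, 15 (8.93%) had a difference of 7 or more. Among the 158 windows with at least as many as EOMES, 16 (10.1%) had one of -3 or below. For windows this rich in peaks, imbalances as large as these were therefore not rare. The Santa Cruz difference at T, 2 in favour of FLyB, was reached in 1.03% of all windows but in 35.3% of the 798 windows with at least 2 Santa Cruz peaks. That at EOMES, 1 in favour of FLyB, was reached in 7.69% of all windows and in 65.2% of the 181 with at least 3.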

How the data were processed

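BRA ChIP-seq libraries of H9 cells in FLyA or FLyB medium, with either of 2 antibodies, were represented by 4 deposited lists of peak positions. Per the labels, the authors aligned reads with Bowtie 0.12.7 to hg19, and the methods name a Genome Analyzer II and MACS as peak caller. A MACS threshold of 1e-12 is named in the Santa Cruz track lines, and for R&D Systems none is stated. The control library, MACS version and handling of duplicates are not given in the sources used here. A looser threshold or deeper sequencing would give a longer list.

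Peaks with a midpoint in either window were taken as members. Peaks sharing at least 1 bp were joined into sites, with chains of peaks forming a single site. Counting used Python 3.11.15, NumPy 2.4.6 and SciPy 1.17.1, shared counts were checked with bedtools 2.31.1, and figures used matplotlib 3.10.9. The functions were tested on simulated lists. Shares have exact (Clopper-Pearson) 95% intervals. The media were also compared with the antibodies as 2 pairs by an exact permutation test. Windows ran from base 1 of each chromosome to its last peak. Positions are counted from 1.

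The members, lists and comparisons were chosen with earlier results of these data known. By rule only T and EOMES are named, since other genes needed an hg19 annotation. Motifs in peaks, protein sequences and counts at other streak genes were not run.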

Additional observations from a re-analysis of the deposited data

Results flagged for a closer look

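The difference between the media at EOMES had opposite signs with the antibodies. FLyB minus FLyA was -3 peaks in the R&D Systems lists (5 against 8) and 1 peak in the Santa Cruz lists (2 against 1). Scaled to 10000 peaks of each list, the differences were -0.98 and 2.55. The difference between the antibodies was not tested, since a medium has a single library with each antibody. The 3 Santa Cruz peaks lay at sites that both R&D Systems lists also hold, and none lay at the 5 sites of FLyA alone. Over the genome, 237 of the 18825 sites of FLyA alone were held with both antibodies, so the latter is usual. Leaving out sites with a FLyA Santa Cruz peak, the FLyB Santa Cruz list shared 1030 sites with both R&D Systems lists. It shared 1108 with the FLyB R&D Systems list alone.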

How the results depend on the processing

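Of 80 alternative values, 64 stayed within 1.5 times the reported count or within the 95% interval of the reported share, 16 moved and 0 reversed. Some of the 64 could not have moved. Among them is the sharing at T with the FLyA Santa Cruz list, which has no peak there at any width tried. With a flank of 20 kb, the R&D Systems counts fell to 4 in FLyB at T and 5 in FLyA at EOMES. With 100 kb, the FLyB counts at T were 19 (R&D Systems) and 4 (Santa Cruz). FLyB exceeded FLyA at T with the R&D Systems antibody at all 3 widths (4 against 2, 10 against 3 and 19 against 4), whereas EOMES was even at 20 kb. With at least 200 bp of overlap, the FLyA Santa Cruz peak at EOMES was shared with 0 peaks of FLyA R&D Systems and 0 of FLyB Santa Cruz, by construction the same value from either list. Among windows with at least 1 peak, a smaller set, the shares for T were 17.2% (FLyA R&D Systems), 0.324% (FLyB R&D Systems) and 2.17% (FLyB Santa Cruz), and for EOMES 0.397% and 4.68% (R&D Systems, FLyA and FLyB) and 12.6% and 1.98% (Santa Cruz). Moving the windows by 0.5 of their width gave 1.22% for the FLyB Santa Cruz count at T. A stricter threshold and motifs in peaks were not run, as the lists hold no score and no hg19 sequence was used. Pairing the media by antibody as a block, chosen after seeing the data, left the mean differences at 4.50 peaks at T and -1 at EOMES by construction. The exact two-sided permutation p was 0.5 and 1 with the pairing and 0.667 and 1 without it. The sign at EOMES depends on scaling by list length, which is not among the 80 values and gave 0.78 per 10000 peaks. Without depths, absence from a list cannot be read as absence of binding.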
